A study of Mus musculus with 14 samples.

Results

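Gadd45b, Ier3, Plaur, Bhlhe40 and Gdf15, genes that cells switch on under stress, were followed in mouse embryonic fibroblasts undergoing reprogramming, 5 of the 26962 genes listed in any library. They were taken by symbol, and were picked with earlier results of these libraries in view, above all their lower level with Cdk9-DN at day 10. Every difference of these 5 genes between the vectors is therefore given here as a description with no test. The fibroblasts, of strain OG2/129SV, had all received Oct4, Sox2, Klf4 and c-Myc, and with them a further construct: the control vector, or Cdk9-DN, whose suffix stands for a dominant-negative form of the kinase. They were grown in embryonic stem cell medium with serum, β-mercaptoethanol and LIF, and RNA was taken at day 3 (1 library per vector) and at days 4, 5 and 10 after infection (2 libraries per vector and day), 14 libraries in 8 groups. The labels do not say that replicates were separate cultures, so the spread behind every p-value is that between libraries and may be technical. In bulk RNA, fewer cells expressing a gene and less RNA per cell cannot be told apart.

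Inducible stress genes are held ready for rapid use: RNA polymerase II often waits just downstream of their start sites, and Cdk9, the kinase of P-TEFb, is what releases it into the gene. The 5 genes act at different places. Gadd45b binds MAP kinase kinases and modulates stress kinase signalling, growth arrest and survival. Ier3 (also known as IEX-1) is an early response gene under NF-kB and p53 control that affects cell survival. Plaur encodes the urokinase receptor uPAR, which gathers plasminogen activation at the cell surface. Bhlhe40 (Dec1) is a transcriptional repressor that responds to hypoxia, growth factors and the circadian clock. Gdf15 is a secreted member of the TGF-beta superfamily that is induced by p53 and by the integrated stress response.

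The genes lie on 5 chromosomes (mm9): Gadd45b on chromosome 10 (80392836 to 80394949), Ier3 on 17 (35958629 to 35959868), Plaur on 7 (25247519 to 25260892), Bhlhe40 on 6 (108610623 to 108616919) and Gdf15 on 8 (73153292 to 73156355). All are protein-coding, and the first 4 read on the plus strand and Gdf15 on the minus strand (GENCODE M21). RefSeq promoter sequences (build GRCm38.p6) matched 4 of the 5 members, all but Bhlhe40. The 250 bases before each start site are shown because all 5 genes stood lower at day 5 than at day 4 with either vector, in lower case 5′ to 3′ along the gene, with matches to the motifs named next in capitals.
Gadd45b, chr10:80929841-80930090, plus strand: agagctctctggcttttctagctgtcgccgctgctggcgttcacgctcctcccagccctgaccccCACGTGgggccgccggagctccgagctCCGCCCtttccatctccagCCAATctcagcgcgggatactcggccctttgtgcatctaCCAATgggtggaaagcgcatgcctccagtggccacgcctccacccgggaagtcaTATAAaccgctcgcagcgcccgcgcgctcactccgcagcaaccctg
Ier3, chr17:35821463-35821712, plus strand: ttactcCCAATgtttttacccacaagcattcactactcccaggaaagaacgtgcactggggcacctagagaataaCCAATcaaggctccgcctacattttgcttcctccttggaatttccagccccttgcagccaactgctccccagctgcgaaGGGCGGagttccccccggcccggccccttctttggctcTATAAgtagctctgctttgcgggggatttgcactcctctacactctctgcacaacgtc
Plaur, chr7:24462233-24462482, plus strand: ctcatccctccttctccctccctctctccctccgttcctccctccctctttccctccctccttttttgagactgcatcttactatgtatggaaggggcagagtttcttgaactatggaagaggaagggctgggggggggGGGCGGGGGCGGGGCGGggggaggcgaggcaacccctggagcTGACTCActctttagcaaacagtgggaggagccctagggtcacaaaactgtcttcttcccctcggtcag
Gdf15, chr8:70632457-70632706, minus strand: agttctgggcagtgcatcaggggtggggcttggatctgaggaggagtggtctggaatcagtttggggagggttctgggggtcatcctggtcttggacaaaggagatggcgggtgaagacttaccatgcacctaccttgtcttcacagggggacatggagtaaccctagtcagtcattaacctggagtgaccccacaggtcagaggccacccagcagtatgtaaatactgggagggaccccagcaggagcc

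In these windows 8 patterns were searched on both strands, chosen with the sequences in view. The TATA box core TATAA was found in Gadd45b and Ier3, 2 of the 4 windows, and in 22.8% of 32851 RefSeq promoter windows of the same length. CCAAT was found 2 times each in Gadd45b and Ier3, against 33.8% of all windows with at least 1 match. The GC box GGGCGG was found in Gadd45b (on the other strand, shown as CCGCCC), Ier3 and Plaur (32.7% of all windows), and the 3 matches of Plaur lie side by side, 2 of them sharing a base. The AP-1 pattern TGANTCA was found in Plaur, ending 63 bases before the start site (6.75% of all windows), and the E-box CACGTG in Gadd45b (6.02%). The CRE pattern TGACGTCA (1.55% of all windows), the ATF4 and CHOP composite pattern TGATGNAA (3.45%) and the NF-kB consensus (0.356%) had no match in these 4 windows, which says only that these letters are not in them. The Gdf15 window matched none of the 8, and no pattern was common to all 4.

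Each member was listed in 10 to 12 of the 14 libraries: Gdf15 in 12, Gadd45b, Ier3 and Bhlhe40 in 11 each, and Plaur in 10. A library that did not list a gene has no value for it here. Depth, derived from the bounds deposited with each FPKM, ran from 8.79 to 12.96 M fragments per library. The 55 member values rested on 23.1 to 1940 implied fragments, a counting error of 2.27% to 20.8%, and Gdf15 had the fewest. Of 21 replicate pairs of a member, 3 differed by more than 2 SD of that counting error: Ier3 (2.97 SD) and Plaur (2.04) in control cells of day 10 and Bhlhe40 (2.02) in Cdk9-DN cells of day 4. The fibroblast marker Dcn was present in every library (3.73 to 21.95 FPKM), while Cdk9, Pou5f1 and Klf4 were listed in 0 libraries, so the level of Cdk9-DN itself was not analysed here.

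Gadd45b had 31.7 and 29.4 FPKM (fragments counted relative to transcript length and library size, so a level per length) in the control libraries of day 4, 21.8 and 19.0 at day 5, and 134 and 135 at day 10. The Cdk9-DN libraries had 31.7 and 32.1 FPKM at day 4, 20.9 and 23.9 at day 5, and 37.4 in the 1 library of day 10 that listed it. The control libraries of day 10 stood apart from all others, and those of day 5 of both vectors overlapped at the low end.

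Bhlhe40 followed Gadd45b closely. The control libraries had 28.0 and 26.2 FPKM at day 4, 17.2 and 16.9 at day 5, and 91.4 and 88.3 at day 10. With Cdk9-DN it had 31.9 and 28.3 FPKM at day 4, 19.3 and 20.05 at day 5, and 36.6 in 1 library at day 10. Its 6 groups, ordered by level, did not overlap with their neighbours: control day 10, Cdk9-DN day 10, Cdk9-DN day 4, control day 4, Cdk9-DN day 5 and control day 5.

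Ier3 had 19.96 and 18.9 FPKM in control cells at day 4, 12.2 in 1 library at day 5, and 41.1 and 33.7 at day 10. With Cdk9-DN it had 38.3 FPKM in the library of day 3, 22.7 in 1 library at day 4, 13.5 and 13.3 at day 5, and 15.0 and 15.3 at day 10. The day 3 library with Cdk9-DN lay within the range of the control libraries of day 10. The Cdk9-DN libraries of day 10 stayed below every library of day 4.

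Plaur had 32.03 and 33.3 FPKM in control cells at day 4, 17.6 and 16.5 at day 5, and 62.9 and 57.2 at day 10. Among Cdk9-DN cells 1 library per day listed it, with 98.8 FPKM at day 3, 36.4 at day 4, 18.0 at day 5 and 23.3 at day 10. Its highest value in any library that listed it was thus the earliest one, at day 3 with Cdk9-DN, and no control library of that day listed it. Among neighbours in the order of its groups, none overlapped, but most of these groups held 1 library.

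Gdf15 was the lowest of the 5 throughout. Control cells had 6.32 FPKM at day 3, 5.76 in 1 library at day 4, 2.05 and 2.21 at day 5, and 6.51 and 5.85 at day 10. Cdk9-DN cells had 6.04 FPKM at day 3, 4.85 in 1 library at day 4, 3.502 and 3.35 at day 5, and 1.83 and 1.39 at day 10. The Cdk9-DN libraries of day 10 were the lowest of all 12 that listed it, and the day 3 libraries of both vectors and the control libraries of day 10 overlapped at the top. It is the 1 member with a value for both vectors at day 3, where the log2(FPKM + 1) difference of Cdk9-DN minus control was -0.06, with 1 library each and no replicate check.

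**Figure D1:**
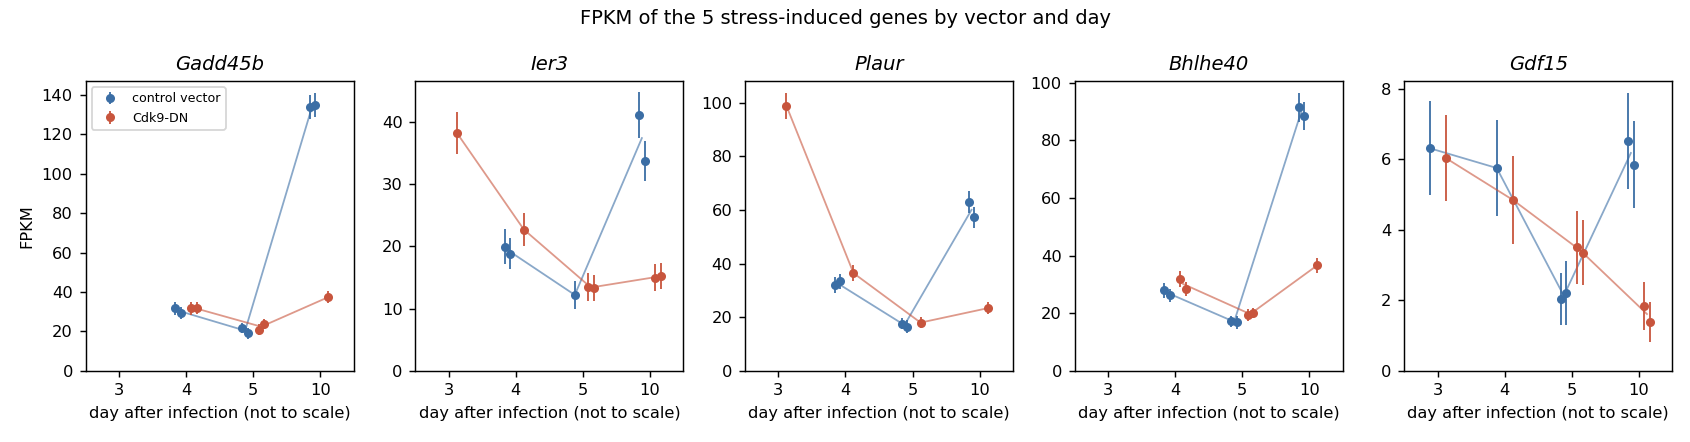
FPKM of each gene (vertical axis, from 0) against the day after infection (horizontal axis, days as categories) for the control vector and Cdk9-DN. Points are libraries, bars the deposited bounds and lines join group means; the control libraries of day 10 stand above the Cdk9-DN libraries of that day in all 5 genes, for Gadd45b at 134 and 135 against 37.4 FPKM.

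The change from day 4 to day 5 compares no library of day 10, although these enter the shared spread. All 5 genes had lower levels at day 5, with either vector, and most of these falls passed. In control cells 4 of 5 fell: Bhlhe40 (log2(FPKM + 1) change -0.64, SE 0.0658, limma adjusted p = 0.00823), Plaur (-0.90, adjusted p = 0.0131), Gdf15 (-1.11, adjusted p = 0.0196) and Gadd45b (-0.56, adjusted p = 0.0233). The background is 3.19% of 5951 genes called lower. Ier3 stood at -0.63 and did not pass (adjusted p = 0.0556). The median over the members was -0.64, against 0.03 over all genes tested. These calls were narrow and each was lost without a single library: Bhlhe40 without control replicate 1 of day 4 (adjusted p = 0.0575) or replicate 2 of day 5 (0.0537), Gdf15 without control replicate 1 (0.0761) or 2 (0.0846) of day 5, and Gadd45b without control replicate 1 (0.122) or 2 (0.0788) of day 4 or replicate 2 of day 5 (0.0997). Plaur was lost without any of the 4 control libraries of these days (adjusted p from 0.0575 to 0.0816). Without a control library of day 10 Ier3 passed (0.0225 and 0.0227), as it did under median-of-ratios scaling (0.0355).

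In Cdk9-DN cells 3 of 5 fell from day 4 to day 5: Bhlhe40 (-0.59, SE 0.0658, limma adjusted p = 0.0135), Plaur (-0.98, adjusted p = 0.0285, 1 library on each day) and Gadd45b (-0.50, adjusted p = 0.0427). The background is 1.95% of 5906 genes called lower, and 79 genes were called higher and 115 lower (70 and 159 under median-of-ratios scaling). Ier3 stood at -0.72 (adjusted p = 0.0505) and Gdf15 at -0.40 (adjusted p = 0.219). Bhlhe40 was lost without Cdk9-DN replicate 1 of day 4 (0.0511) or replicate 1 (0.0792) or 2 (0.0643) of day 5. Plaur was lost without any of the 4 control libraries of days 4 and 5 or without Cdk9-DN replicate 1 of day 4 or day 5 (0.0517 to 0.0791), and Gadd45b without any library other than the control libraries of day 5 (0.0527 to 0.177) and with no filter on low values (0.0788). Ier3 passed under median-of-ratios scaling (0.0302), with a pseudocount of 0.1 (0.0469) and without either control library of day 10 (0.0234 and 0.0233). Whether the falls differed between the vectors was not tested.

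The summed level of 4 markers of macrophages, cells that carry much uPAR, was also lower at day 5 than at day 4. Of 11 macrophage markers 8 were listed and 4 had a value in all 12 libraries of days 4, 5 and 10 (Tyrobp, C1qa, C1qb and Lyz2). Their summed level was 3.17 to 3.69 FPKM in control and 3.62 to 3.75 in Cdk9-DN cells at day 4, and 1.30 to 1.84 and 1.73 to 2.03 at day 5. Of these 4 markers, 2 stayed under 1 FPKM in control cells of day 4, and 3 in the other groups of days 4 and 5. Tyrobp, C1qa and C1qb reached at most 1.49, 1.31 and 0.927 FPKM in any library, against 9.205 for Lyz2. The part of these markers in the fall was not tested. At day 10, when the members stood high in control cells, the sum was 0.122 to 0.133 FPKM in control cells, and all 4 were listed at 0 with Cdk9-DN.

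From day 5 to day 10 the members came up strongly in control cells. With Cdk9-DN, Bhlhe40 and Gadd45b rose by smaller amounts, Plaur and Ier3 did not pass and Gdf15 fell. The change from day 5 to day 10 shares the day 10 libraries with the difference the members were picked on, so its tests are not independent of that choice. In control cells all 5 rose: Gadd45b by 2.66 on the log2 scale (SE 0.0874, limma adjusted p = 3.62e-06), a 6.59-fold change in FPKM, Bhlhe40 by 2.33 (adjusted p = 2.18e-06, 5.28-fold), Plaur by 1.76 (adjusted p = 1.18e-04, 3.52-fold), Ier3 by 1.53 (adjusted p = 2.99e-04, 3.07-fold) and Gdf15 by 1.20 (adjusted p = 5.65e-04, 2.90-fold). The background is 27.3% of 5798 genes called higher. The median over the members was 1.76, against 0.04 over all genes tested, and no call was lost in the runs that left out 1 library.

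With Cdk9-DN, 2 of the 5 rose from day 5 to day 10: Bhlhe40 (0.86, SE 0.0806, limma adjusted p = 4.76e-04) and Gadd45b (0.72, adjusted p = 0.00318), each with 1 library at day 10. The background is 22.5% of 5783 genes called higher and 12.4% called lower (1304 higher and 715 lower, and 1001 and 956 under median-of-ratios scaling). Plaur stood at 0.36 (adjusted p = 0.0594) and Ier3 at 0.16 (adjusted p = 0.273). Gdf15 fell (-0.77, SE 0.111, adjusted p = 0.00489). These 3 calls kept their side of the threshold without any 1 library that left a value.

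**Figure D2:**
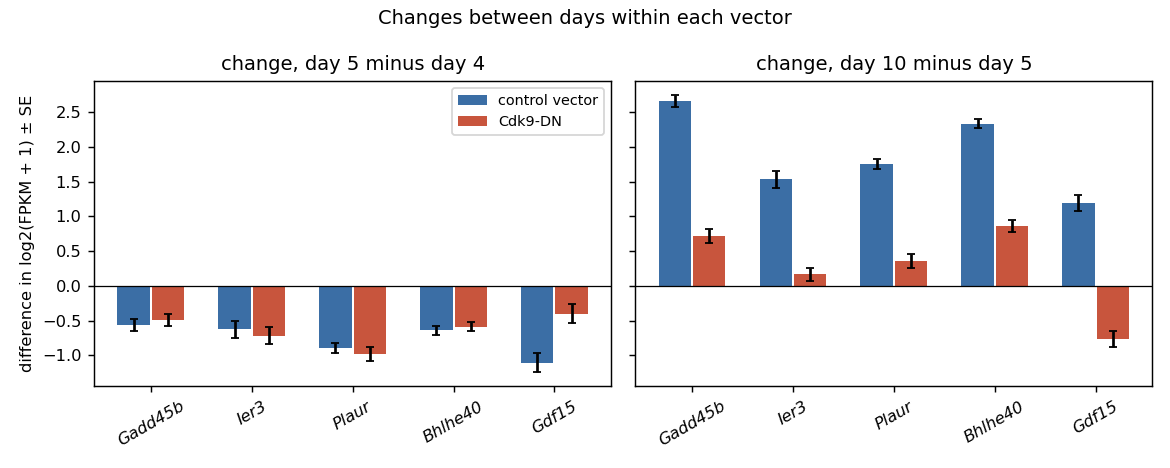
Difference in log2(FPKM + 1) between days (vertical axis, bars with SE) for each gene, day 5 minus day 4 on the left and day 10 minus day 5 on the right, by vector. All bars on the left lie below 0; on the right the control bars run from 1.20 to 2.66 and the Cdk9-DN bars from -0.77 to 0.86.

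Set against its own day 4, each gene reached a different end point. In control cells Gadd45b stood at day 10 at 440% of its day 4 mean, Bhlhe40 at 332%, Ier3 at 193%, Plaur at 184% and Gdf15 at 107%. With Cdk9-DN the same 5 stood at 117%, 121.5%, 66.6%, 64.1% and 33.2%. Bhlhe40 and Gadd45b, the pair with the highest end points in control cells, were also those above their day 4 level with Cdk9-DN.

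**Figure D3:**
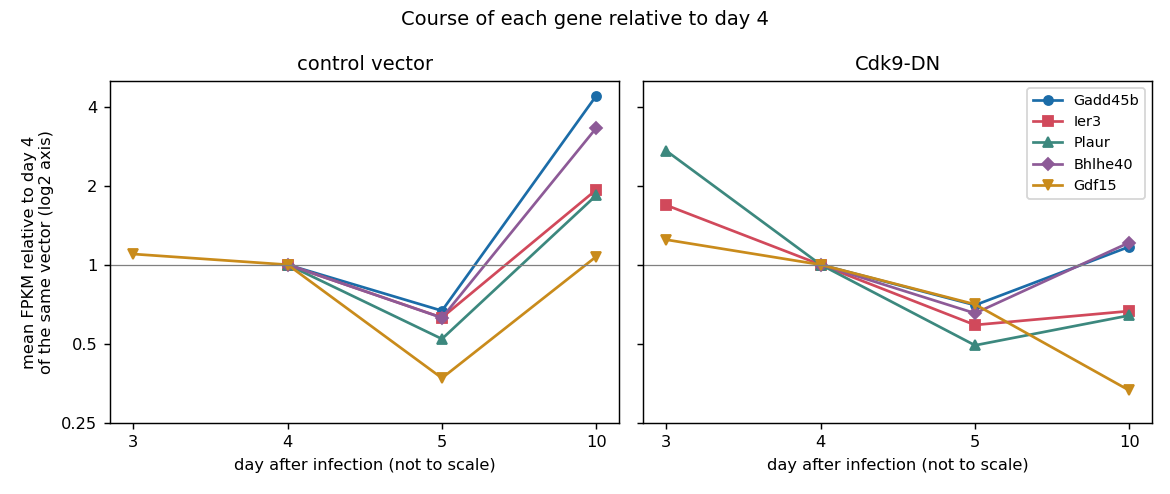
Mean FPKM of each gene relative to day 4 of the same vector (vertical axis, log2 scale) against the day after infection (horizontal axis, days as categories), control vector on the left and Cdk9-DN on the right. In control cells the lines dip at day 5 and end between 1.07 and 4.40 times day 4; with Cdk9-DN they end between 0.332 and 1.22 times.

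Between the vectors, the 2 early days gave small differences and day 10 a large one. At day 4 the log2(FPKM + 1) difference of Cdk9-DN minus control was 0.06 for Gadd45b (SE 0.0874), 0.22 for Ier3 (SE 0.120), 0.15 for Plaur (SE 0.0868), 0.15 for Bhlhe40 (SE 0.0658) and -0.21 for Gdf15 (SE 0.157). It was 0.12 and 0.01 for Gadd45b without control replicate 1 or 2, and 0.06 and 0.23 for Bhlhe40 without Cdk9-DN replicate 1 or 2. The libraries did not overlap for the 4 higher ones, Gadd45b by less than 0.1 FPKM and Ier3 and Plaur with 1 Cdk9-DN library each. Nor did they for Gdf15, with 1 library per vector (18.5% of all genes were higher and 23.0% lower without overlap). At day 5 it was 0.13 (SE 0.0874), 0.13 (SE 0.120), 0.07 (SE 0.0868), 0.20 (SE 0.0658) and 0.50 (SE 0.111) in the same order. All 5 means stood higher with Cdk9-DN, with the Gdf15 libraries at 3.502 and 3.35 against 2.05 and 2.21 FPKM. For Gadd45b the value was 0.23 and 0.03 without control replicate 1 or 2 of day 5 and 0.22 and 0.04 without Cdk9-DN replicate 1 or 2, and for Plaur 0.12 and 0.03 without control replicate 1 or 2. At day 5, 4 of 5 did not overlap, all but Gadd45b, as for 18.2% of all genes in this direction. Of these, Ier3 had 1 control library and Plaur 1 Cdk9-DN library, at 17.96 against 17.6 and 16.5 FPKM for Plaur. Over all genes the limma test called 0.169% of 5902 genes at day 5 and 0.0336% of 5950 at day 4.

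At day 10 the control libraries held 3.59 times the FPKM of the Cdk9-DN library for Gadd45b, and by group means 3.84 times for Gdf15, 2.57 times for Plaur, 2.47 times for Ier3 and 2.46 times for Bhlhe40. The log2(FPKM + 1) differences were -1.82 (SE 0.107), -1.46 (SE 0.111), -1.32 (SE 0.0868), -1.25 (SE 0.0981) and -1.27 (SE 0.0806), in that order, with a median of -1.32 against 0.00 over all genes tested. The libraries of the vectors did not overlap for any of the 5, as for 33.5% of the 5740 genes tested in this direction, and 14.4% of the genes were called lower and 14.5% higher. The members were chosen on this difference, so nothing is read from these counts.

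Markers of the cell states reached by day 10 also differed between the vectors on that day. Between days they moved with the members at some steps and not at others. In control cells the epithelial and pluripotency sums rose from day 5 to day 10, as did all 5 members. The epithelial sum was higher at day 5 than at day 4 with both vectors, while the members fell. In control cells it was 2.43 to 2.89 FPKM at day 4 and 5.83 to 6.30 at day 5. Of the 3 epithelial markers summed, 2 stayed under 1 FPKM in every group of days 4 and 5. With Cdk9-DN the epithelial and pluripotency sums rose from day 5 to day 10, as did Bhlhe40 and Gadd45b, while Gdf15 fell. Of 9 epithelial markers 7 were listed and 3 had a value in all 12 libraries of days 4, 5 and 10, with summed levels of 2.43 to 8.27 FPKM at days 4 and 5, 262 to 271 in control and 58.5 to 65.2 FPKM in Cdk9-DN cells at day 10. Of 8 pluripotency markers 7 were listed and 5 had such values, with sums of at most 0.372 FPKM at days 4 and 5, 45.8 to 53.6 in control and 19.7 to 20.4 in Cdk9-DN cells at day 10. Of 10 fibroblast markers 5 were listed, and the 1 with a value in all 12 libraries, Dcn, stood at 3.73 to 4.42 in control and 12.45 to 14 FPKM in Cdk9-DN cells at day 10. Of 6 endothelial markers 3 were listed and 2 (Cdh5 and Cldn5) had such values, with sums of 3.68 to 3.81 in control and 0.957 to 0.974 FPKM in Cdk9-DN cells at day 10. Nearly all of that is Cldn5: Cdh5 reached at most 0.0780 and Kdr at most 0.140 FPKM in any library that listed them. Their part in the levels of the stress genes was not tested.

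The other genes of the members' pathways were set beside them in 7 lists, without the members and without Map3k4, whose symbol stood for several identifiers. The lists were chosen with earlier results of these libraries known. Their tests and counts between the vectors, here and below, are therefore not independent of that choice. At day 10 these lists held 40 genes tested, of which limma called 18 lower and 3 higher with Cdk9-DN, where 14.4% of all genes tested were called lower and 14.5% higher. The lower count was 9 without Cdk9-DN replicate 2 of day 10, 11 without its replicate 1 or without control replicate 1, and 12 without control replicate 2, where fewer genes could be tested. At days 4 and 5 no gene of the lists was called between the vectors, with 8 of unadjusted p under 0.05 on each day. At day 4 these were 4 of 14 NF-kB and early response genes and 2 of 6 plasminogen genes. The others were 1 of 9 integrated stress response genes and 1 of 6 p53 targets. At day 5 the counts were 4 of 13, 2 of 5, 0 of 9 and 1 of 6, with 1 of 2 in the GADD45 list. Over all genes tested, 388 of 5950 had such a p at day 4 and 500 of 5902 at day 5.

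Between days the lists moved unevenly. From day 4 to day 5 the genes called outside the hypoxia list were all lower, and from day 5 to day 10 calls went both ways. From day 4 to day 5 in control cells 1 of 2 genes of the GADD45 and stress kinase list fell, 2 of 6 p53 targets, 3 of 14 NF-kB and early response genes, 2 of 5 plasminogen genes and 0 of 9 integrated stress response genes, and 1 of 5 hypoxia genes rose, against 3.19% of all genes called lower and 1.83% higher. With Cdk9-DN the falls were 1 of 2, 2 of 6, 2 of 13, 1 of 5 and 1 of 9, and again 1 of 5 hypoxia genes rose, against 1.95% called lower and 1.34% higher. From day 5 to day 10 in control cells 4 integrated stress response genes were called higher and 2 lower of 9 (1 of the 4 is Ddit3, listed at 0 at day 5 and not tested between these days with Cdk9-DN), 4 p53 targets rose and 1 fell of 6, 4 NF-kB and early response genes rose and 3 fell of 14, and 1 plasminogen gene rose and 2 fell of 5, against 27.3% of all genes called higher and 22.5% lower. With Cdk9-DN the counts were 3 and 0 of 8, 3 and 3 of 7, 1 and 4 of 13, and 0 and 3 of 5, against 22.5% called higher and 12.4% lower. Over the same days the 2 genes tested of the GADD45 and stress kinase list fell with both vectors. Of hypoxia genes, 1 rose and 0 fell of 2 in control cells, and 2 rose and 1 fell of 4 with Cdk9-DN.

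The closest relative of Gadd45b that was listed, Gadd45g, took another course. It stood at 159 FPKM in 1 control library of day 4, 92.5 ± 6.50 (SD, n = 2) at day 5 and 59.9 ± 3.52 at day 10, and at 162 ± 3.76, 111 ± 1.66 and, in 1 library, 64.0 FPKM with Cdk9-DN. It fell at each step, from day 4 to day 5 (control -0.78, limma adjusted p = 0.0132; Cdk9-DN -0.55, adjusted p = 0.0259) and from day 5 to day 10 (-0.62, adjusted p = 0.00107; -0.79, adjusted p = 0.00161). At day 10 it did not pass between the vectors (0.09, SE 0.0827, adjusted p = 0.468). Of its list without Map3k4, 2 genes were listed and tested, Gadd45g and Gadd45gip1, and 0 passed at day 10, with 0 of unadjusted p under 0.05.

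Around Plaur, the list of plasminogen activation and uPAR partners had 6 genes tested at day 10, of which 4 were lower with Cdk9-DN and 0 higher (median -0.45). No run that left out 1 library kept all 4, and with no filter on low values 3 of 8 were lower. The gelatinase gene Mmp2 stood at 74.8 FPKM in 1 control library and 51.3 ± 1.92 (SD, n = 2) with Cdk9-DN (-0.54, limma adjusted p = 0.00960). Plau, which encodes urokinase, the ligand of uPAR, was lower too, at 2.31 ± 0.0524 and 1.40 ± 0.137 FPKM (-0.47, adjusted p = 0.0491), as was the integrin gene Itga5 (-0.42, adjusted p = 0.00613), named after its value was seen. Without control replicate 1 or Cdk9-DN replicate 2 of day 10, 2 were lower, of 3 and 4 tested. The tissue-type activator Plat did not pass between the vectors (0.36, adjusted p = 0.170).

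The NF-kB and early response list had 14 genes tested at day 10, 6 lower and 1 higher (median -0.07), and 3 lower without control replicate 2 or Cdk9-DN replicate 2 of day 10. Nfkbia, the NF-kB inhibitor that NF-kB itself induces, stood at 60.4 ± 0.626 FPKM in control and 29.7 ± 0.50 in Cdk9-DN cells (SD, n = 2; -1.0, SE 0.0575, limma adjusted p = 5.92e-05). The zinc finger factor Klf6 stood at 20.05 ± 0.457 and 11.0 ± 0.421 FPKM (-0.81, adjusted p = 7.42e-04). Going the other way, the chemokine gene Ccl2 had 11.7 ± 0.137 FPKM in control and 25.2 ± 0.643 in Cdk9-DN cells (1.05, adjusted p = 9.65e-05). The relatives named for the same kind of induction as Ier3 split: Ier5 was lower (-0.45, adjusted p = 0.0403), and Ier2 did not pass (0.11, adjusted p = 0.414), at 38.2 ± 2.94 and 41.4 ± 1.72 FPKM.

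Of the lists that share an inducer with Gdf15, the p53 targets called at day 10 were all lower, and integrated stress response genes went both ways. Of 7 p53 targets tested at day 10, 4 were lower and 0 higher (median -0.41): Pmaip1, a pro-apoptotic BH3 protein (-0.98, limma adjusted p = 0.0320, 1 Cdk9-DN library), Plk2 (-0.56, adjusted p = 2.31e-04), the desmosomal p53 effector Perp (-0.54, adjusted p = 2.30e-04) and, named after its value was seen, Btg2 (-0.41, adjusted p = 0.00342). Perp nonetheless rose from day 5 to day 10 with both vectors, to 254 ± 0.677 and 174 ± 2.46 FPKM. Of 8 integrated stress response genes tested, 3 were lower and 2 higher (median -0.28), and 1 lower without control replicate 1 or either Cdk9-DN library of day 10. Its central factor Atf4 stood at 158 FPKM in 1 control library and 102 ± 3.12 with Cdk9-DN (-0.63, adjusted p = 0.0106), and its target Chac1 at 4.70 ± 0.774 and 1.94 ± 0.0644 FPKM (-0.95, adjusted p = 0.00441). Ddit4, with 1 control library, was lower as well (-0.54, adjusted p = 0.0161). The higher genes, named after their values were seen, were the leucine sensor gene Sesn2 (0.48, adjusted p = 0.00272) and the cystine transporter gene Slc7a11 (0.48, adjusted p = 0.00285). Ddit3, which encodes CHOP, was listed at 0 in both control libraries of day 5 and at 54.75 and 52.4 FPKM in those of day 10. No Cdk9-DN library of day 10 listed it, so it was not tested between the vectors, and a listed 0 can be a failed estimate.

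Of 2 hypoxia response genes tested at day 10, the vasoactive peptide gene Adm was lower with Cdk9-DN, at 15.2 ± 0.441 and 2.27 ± 0.364 FPKM (SD, n = 2; -2.31, SE 0.116, limma adjusted p = 0.00278). It had values in 8 libraries, and too few residual degrees of freedom to be tested once any 1 of the 4 libraries of day 10 was left out. Among Bhlhe40's partners of the circadian clock 1 was tested, Cry1, and 0 passed (-0.39, adjusted p = 0.142), with 0 of unadjusted p under 0.05.

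**Figure D4:**
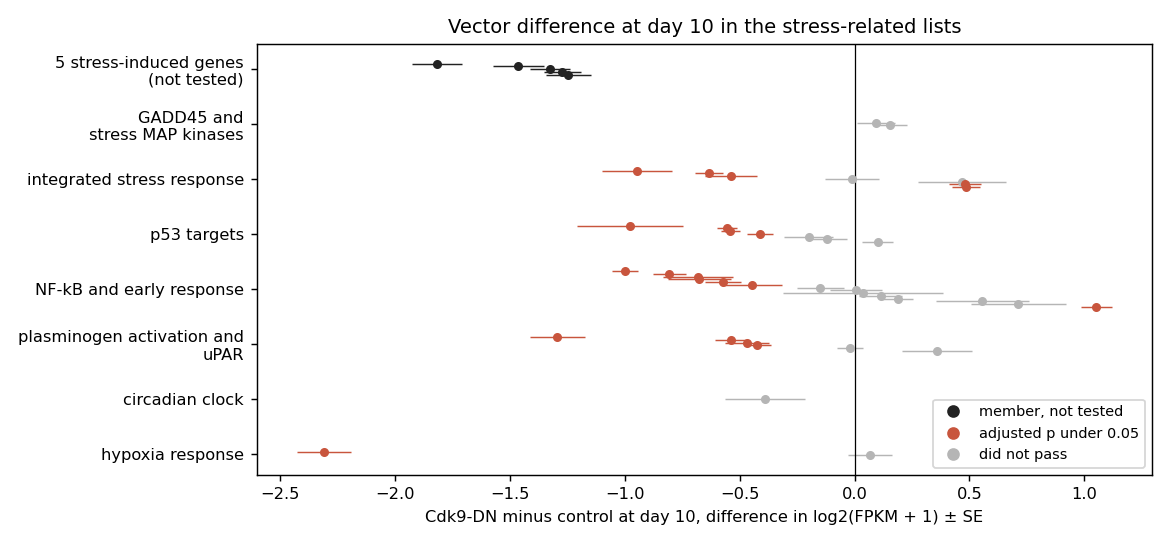
Difference in log2(FPKM + 1) between Cdk9-DN and control cells at day 10 (horizontal axis, points with SE) for the 5 genes, which were not tested, and for the genes of 7 lists (rows), coloured by adjusted p. The 5 genes lie between -1.82 and -1.25; the genes drawn from the lists fall on both sides of 0, from Adm at -2.31 to Ccl2 at 1.05, and Cebpb (-4.91, SE 1.796, adjusted p = 0.0821), listed at 0 in several libraries, is tested but not drawn.

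The genes whose levels ran most alike were named by Pearson's r of log2(FPKM + 1), as a description over libraries that share vector and day. For Gadd45b they were the MAP kinase phosphatase gene Dusp5 (r = 0.994, 11 libraries), Psca (0.991, 10) and Nfkbia (0.990, 11), out of 1056 genes compared. For Bhlhe40 they were the small heat shock protein gene Hspb8 (0.994, 11 libraries), Psca (0.992, 10) and Dusp5 (0.991, 11), and Gadd45b and Bhlhe40 themselves had r = 0.989 over 11 libraries. Dusp5 stood at 5.55 FPKM in control cells of day 4, 3.36 at day 5 and 33.5 at day 10, and at 7.72 with Cdk9-DN at day 10, as group means. For Ier3 they were Rras2 (0.963, 10 libraries), Id2 (0.960, 11) and Sertad1 (0.954, 10) out of 1026 genes, and for Plaur Mfge8 (0.973), Stbd1 (0.964) and again Id2 (0.961), each over 10 libraries and out of 613 genes. Id2, an inhibitor of bHLH factors, stood at 37.1, 19.6 and 56.6 FPKM in control cells of days 4, 5 and 10 and at 30.2 with Cdk9-DN at day 10. For Gdf15 the values were lower, Ppp1r2-ps2 (0.940, 12 libraries), the endothelin gene Edn1 (0.935, 10) and Stx11 (0.933, 10) out of 1312 genes. In control cells Edn1 stood at 9.80, 6.83 and 9.65 FPKM at days 4, 5 and 10, and at 4.95 with Cdk9-DN at day 10.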

How the data were processed

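RNA sequencing of 14 libraries was used. Per the submitters' processing notes, the tools were CASAVA 1.8.2, TopHat2 2.0.10 and Cufflinks 2.2.1 and the builds mm9 and NCBIM37. The authors deposited FPKM with a lower and an upper bound, 1 table per library; read counts were not used here. Entries of 1 identifier were summed (16 identifiers), and 1 entry with a failed status was dropped. Unlisted genes were treated as missing. Implied fragments assume bounds of 2 SD around the FPKM that cover counting error alone, and depth came from single-transcript protein-coding genes of at least 1000 bases in GENCODE M21.

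For days 4, 5 and 10 (12 libraries), 6 group means were fitted to log2(FPKM + 1) by least squares, using for each gene its listed values. A gene needed 2 or more residual degrees of freedom. The variances were then moderated with limma 3.58.1 (R 4.3.3), with an intensity trend, and a limma p-value here is one from this fit. A filter of at least 1 FPKM in at least 2 libraries left 7460 genes, and 5740 to 5951 of them, with values in both groups, were tested per contrast. A gene was called at a Benjamini-Hochberg adjusted p under 0.05 (two-sided), adjusted across each contrast's genes. A group with 1 listed library takes its spread from the others. The fit was tested on simulated data. It was compared with limma's own fit only on genes listed in all 12 libraries, which leaves out every member.

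The members and lists were chosen with earlier results of these data known. Named were the members, 13 partners, up to 3 called genes of each list with the greatest difference at day 10, and for each member the 3 genes of highest r over at least 10 libraries among genes reaching 5 FPKM in some group. Partners with no value there (Gadd45a, Bhlhe41, Atf3, Mdm2, Ppp1r15a at day 10) were not analysed here. The values of 1 further gene are not reported here.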

Additional observations from a re-analysis of the deposited data

Results flagged for a closer look

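Gdf15 moved in opposite directions between the vectors from day 5 to day 10. In control cells both libraries of day 10 lay above both of day 5 (log2(FPKM + 1) change 1.20), and with Cdk9-DN both lay below (-0.77). Either pattern was common: 38.7% of 5798 genes were higher without overlap in control cells, and 30.5% of 5783 lower with Cdk9-DN. The difference between these changes was not tested, since it contains the day 10 difference that Gdf15 was picked on. The values with Cdk9-DN at day 10 rest on 28.5 and 23.1 implied fragments.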

How the results depend on the processing

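Of 309 alternative values for the members' changes between days, 267 kept their direction and side of the threshold, 35 no longer passed, 7 newly passed and 0 reversed, and all but those given beside the results came from the fit with a replicate block. Correlations of the replicate deviations ran from -0.376 to 0.306 over 15 pairs of groups, 3 over 0.1. In control cells they were 0.306 for days 4 and 5, -0.361 for days 4 and 10, and -0.376 for days 5 and 10. Such values of both signs cannot settle whether the replicate numbers pair the samples. With the replicate block the falls from day 4 to day 5 of Gadd45b (adjusted p = 0.0552 in control, 0.0911 with Cdk9-DN), Gdf15 (0.0501, control) and Plaur (0.0762, Cdk9-DN) no longer passed. It called 155 genes for control cells and 88 for Cdk9-DN cells from day 4 to day 5, against 299 and 194, and 6 between the vectors at day 5 against 10. Restricting to genes listed in all 12 libraries, which leaves out every member, gave 86 (control) and 46 (Cdk9-DN) calls from day 4 to day 5, 1485 (against 2885) and 1058 (against 2019) from day 5 to day 10, and 1, 3 and 768 between the vectors at days 4, 5 and 10 (against 2, 10 and 1658). With no filter 19 and 24 were called between the vectors at days 4 and 5, and a pseudocount of 0.1 gave 6 at day 4. Leaving out 1 library gave 37 to 267 (control) and 37 to 179 (Cdk9-DN) calls from day 4 to day 5, 1 to 9, 9 to 19 and 930 to 1540 between the vectors at days 4, 5 and 10, 2213 to 2797 from day 5 to day 10 in control and 1348 to 1940 in Cdk9-DN cells. At day 10, dropping control replicate 1 of that day left 930 calls, dropping Cdk9-DN replicate 1 left 938 and dropping its replicate 2 left 980. The Cdk9-DN count from day 4 to day 5 was 37 to 129 once any library other than a control library of day 10 was dropped, and that for control cells from day 4 to day 5 was 37 and 80 without control replicate 1 or 2 of day 4 and 122 and 64 without control replicate 1 or 2 of day 5. Of 231 values for the members' differences between the vectors, 12 moved by more than the replicate SD: 6 for Gadd45b and Bhlhe40 at days 4 and 5, given beside them, Gdf15 with a pseudocount of 0.1 at day 5 (0.66) and day 10 (-1.89), and at day 10 without 1 library Ier3 (-1.11 and -1.38) and Gdf15 (-1.59 and -1.34). Counting error limits Gdf15 most, and 0 members were listed in all 14 libraries.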
